A study of Mus musculus with 12 samples.

Results

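Transcripts of 8 nucleolar factors of ribosome biogenesis (Nop58, Nop56, Fbl, Npm1, Ncl, Ddx21, Wdr43 and Nolc1) were followed in the mouse pancreas with and without the transcription factor Mist1, after saline or after caerulein. The members were all probe sets annotated by the platform with 1 symbol only, where that symbol was among the 8. This yielded 18 probe sets for 8 genes, out of 22452 probe sets and 12335 genes named singly on the array. A probe set is a group of short oligonucleotides whose brightness is summarised into 1 signal for a transcript. Of the 18, 16 passed the filter on dim probe sets and were tested, and 2, 1 each for Ncl and Nolc1, were too dim.

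Ribosomes are built in the nucleolus, where RNA polymerase I makes a long precursor that is modified, folded, cut and joined to ribosomal proteins. Small nucleolar RNAs (snoRNAs) of the box C/D class guide the 2′-O-methylation of that precursor within particles that hold Nop56, Nop58 and the methyltransferase fibrillarin, the product of Fbl. Npm1 and Ncl encode the abundant nucleolar proteins nucleophosmin and nucleolin, Ddx21 an RNA helicase, Wdr43 a subunit of the small subunit processome and Nolc1 a scaffold protein that binds snoRNA particles. The acinar cells that make up most of the exocrine pancreas produce digestive enzymes at a high rate and hold many ribosomes.

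The study set wild type mice, called C57BL6 in the labels, beside mice labelled Mist1KO, in which the gene Bhlha15 (Mist1) is lost. Mist1 is a basic helix-loop-helix factor of secretory cells, and caerulein is a cholecystokinin analogue that makes acinar cells secrete and, at high repeated doses, causes pancreatitis. All animals were males aged 2 to 4 months that received hourly injections for 4 hours, and RNA came from the whole pancreas. There were 4 groups of 3 pancreata, wild type saline, wild type caerulein, Mist1KO saline and Mist1KO caerulein, which the series calls biological replicates. The allele and strain background of the Mist1KO mice, the dose of caerulein and the position of the Bhlha15 probes relative to the deletion are not stated in the labels. A difference between genotypes therefore cannot be told apart from one of strain background. Fewer cells of a type and less RNA per cell cannot be told apart in whole tissue.

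The signals of the targeted gene followed the labels, with Bhlha15 from 729.5 to 1624.3 on the wild type arrays and from 38.3 to 106.8 on the Mist1KO arrays. In wild type Bhlha15 averaged 1615 after saline and 782 after caerulein, without overlap (log2 difference -1.03 ± 0.17, SE, limma adjusted p = 0.000934). In Mist1KO it averaged 97.5 after saline and 53.4 after caerulein (-0.73 ± 0.17, limma adjusted p = 0.00764). None of the 11 acinar marker genes on the array had a group mean under 18.7, a signal at the 20th percentile of all values. The same held for 6 islet and 3 adipocyte markers, so this alone does not identify the tissue. The summed signal of the acinar markers lay between 167058 and 214024 after saline and 141970 and 193822 after caerulein in wild type, and between 124495 and 145871 after saline and 72115 and 110277 after caerulein in Mist1KO. The spiked-in hybridisation controls had geometric means that decreased in the same order of groups (1263 ± 62, 1073 ± 325, 914 ± 139 and 446 ± 58.2, SD, n = 3). The 3′ to 5′ ratio of Actb, a measure of RNA and labelling quality, was 1.53 ± 0.11, 1.35 ± 0.0643, 1.82 ± 0.116 and 1.12 ± 0.0666 in that order. Summed leukocyte markers had medians of 1974, 1182, 1325 and 1492, and those of fibroblasts and stellate cells 3734, 2525, 3844 and 2637. The part of these differences in the results below was not tested.

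The promoters of the members that moved are shown first, because their transcripts moved in different comparisons. The promoter table from RefSeq (build GRCm38.p6) held 6 of the 8 members, and Npm1 and Fbl were not in it. Printed from 250 bases before the start site to 25 bases after it are Nop58 (chr1:59684756-59685030, plus strand) and Nop56 (chr2:130274162-130274436, plus strand), which rose in both contrasts that start from wild type saline. Ncl (chr1:86359431-86359705, minus strand) was higher in Mist1KO than in wild type. Ddx21 (chr10:62602274-62602548, minus strand) rose with caerulein in both genotypes, and Wdr43 (chr17:71615965-71616239, plus strand) with caerulein in wild type. Capitals mark matches to the motifs searched.
Nop58: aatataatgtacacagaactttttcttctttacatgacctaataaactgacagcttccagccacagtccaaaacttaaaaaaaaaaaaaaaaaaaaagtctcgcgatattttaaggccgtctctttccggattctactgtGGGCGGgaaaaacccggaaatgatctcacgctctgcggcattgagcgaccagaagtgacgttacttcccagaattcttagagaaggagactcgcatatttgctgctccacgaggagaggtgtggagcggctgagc
Nop56: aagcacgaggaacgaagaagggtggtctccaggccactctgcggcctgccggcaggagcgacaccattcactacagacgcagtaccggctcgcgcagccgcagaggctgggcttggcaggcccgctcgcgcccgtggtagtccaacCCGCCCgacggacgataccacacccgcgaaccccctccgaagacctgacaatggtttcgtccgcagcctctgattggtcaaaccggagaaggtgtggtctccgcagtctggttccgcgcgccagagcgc
Ncl: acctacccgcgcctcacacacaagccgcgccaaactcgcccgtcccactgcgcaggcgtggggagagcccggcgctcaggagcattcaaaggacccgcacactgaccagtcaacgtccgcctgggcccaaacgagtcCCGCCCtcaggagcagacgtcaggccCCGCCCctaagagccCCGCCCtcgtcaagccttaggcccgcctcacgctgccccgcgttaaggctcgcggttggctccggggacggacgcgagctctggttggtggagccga
Ddx21: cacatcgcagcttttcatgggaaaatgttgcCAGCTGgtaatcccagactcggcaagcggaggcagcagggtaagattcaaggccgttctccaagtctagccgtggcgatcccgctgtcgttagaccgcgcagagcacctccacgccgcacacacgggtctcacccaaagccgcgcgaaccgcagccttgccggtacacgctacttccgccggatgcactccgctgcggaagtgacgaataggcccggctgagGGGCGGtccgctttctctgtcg
Wdr43: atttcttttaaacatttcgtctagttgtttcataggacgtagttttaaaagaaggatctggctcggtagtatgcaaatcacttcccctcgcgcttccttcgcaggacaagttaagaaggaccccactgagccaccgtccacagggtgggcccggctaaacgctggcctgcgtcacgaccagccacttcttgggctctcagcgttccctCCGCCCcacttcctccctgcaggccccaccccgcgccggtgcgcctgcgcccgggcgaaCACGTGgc
The search covered 300 bases per window, to 50 bases past the start, on both strands. It looked for E-boxes, to which basic helix-loop-helix factors bind, with the letters CACGTG, as Myc prefers, or with those of CATATG or of CAGCTG. It also looked for the GC box GGGCGG and for TGATGNAAT, an element of the integrated stress response. The GC box occurred in 6 of 6 member windows, against 35.7% of 32851 windows in the table. It lay in 1 copy in Nop58, starting 110 bases before the start site, and in 3 copies in Ncl, of which the nearest began 72 bases before it. CACGTG was found in Wdr43 alone, at base 18 after the start, against 7.15% of all windows. CAGCTG occurred in Ddx21 alone, beginning 219 bases before the start, against 16.3% of all windows. CATATG (3.91% of all windows) and TGATGNAAT (0.965%) were not found in the 6 windows. These motifs do not overlap each other in their letters, and a match describes the sequence only.

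Caerulein in wild type raised 4 of the 8 factors, and 5 were higher in Mist1KO than in wild type after saline. Nop58 and Nop56 were in both sets, which share the wild type saline arrays. Differences are given as log2 differences ± SE with n = 3 per group, a factor was called when its limma p-value, adjusted over all 15716 probe sets tested, was under 0.05, and each gene is counted by its brightest probe set. With caerulein, 4 of 8 genes were higher in wild type (Nop58, Nop56, Ddx21 and Wdr43) where 8.74% of all genes were, and 2 of 8 in Mist1KO (Ddx21 and Nop58) where 10.2% were. In Mist1KO against wild type, 5 of 8 were higher after saline (Nop58, Nop56, Npm1, Ncl and Fbl) where 6.14% of all genes were. After caerulein 3 of 8 were higher in Mist1KO (Npm1, Ncl and Fbl) where 9.03% were, and Wdr43 was lower where 11.6% of all genes were. Nolc1 was called in none of these comparisons.

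By probe set, 4 of 16 were called in wild type with caerulein, all higher (9.19% of all probe sets called higher), with a median difference of 0.47 against -0.14 over all probe sets. In Mist1KO with caerulein 2 of 16 were called higher (10.5% of all), with medians of 0.15 and -0.13. For Mist1KO against wild type, 9 of 16 were higher after saline (6.84% of all; medians 0.62 and -0.05). After caerulein 5 were higher and 1 lower (10.0% and 10.2% of all; medians 0.37 and -0.05). The number of member probe sets whose groups did not overlap was 7, 4, 10 and 9 in the same order, against 33.8%, 43.4%, 33.1% and 38.1% of all probe sets. Without wild type saline replicate 3, 7 probe sets were called in wild type with caerulein, and without Mist1KO caerulein replicate 1 only 1 was called in Mist1KO with caerulein.

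**Figure D1:**
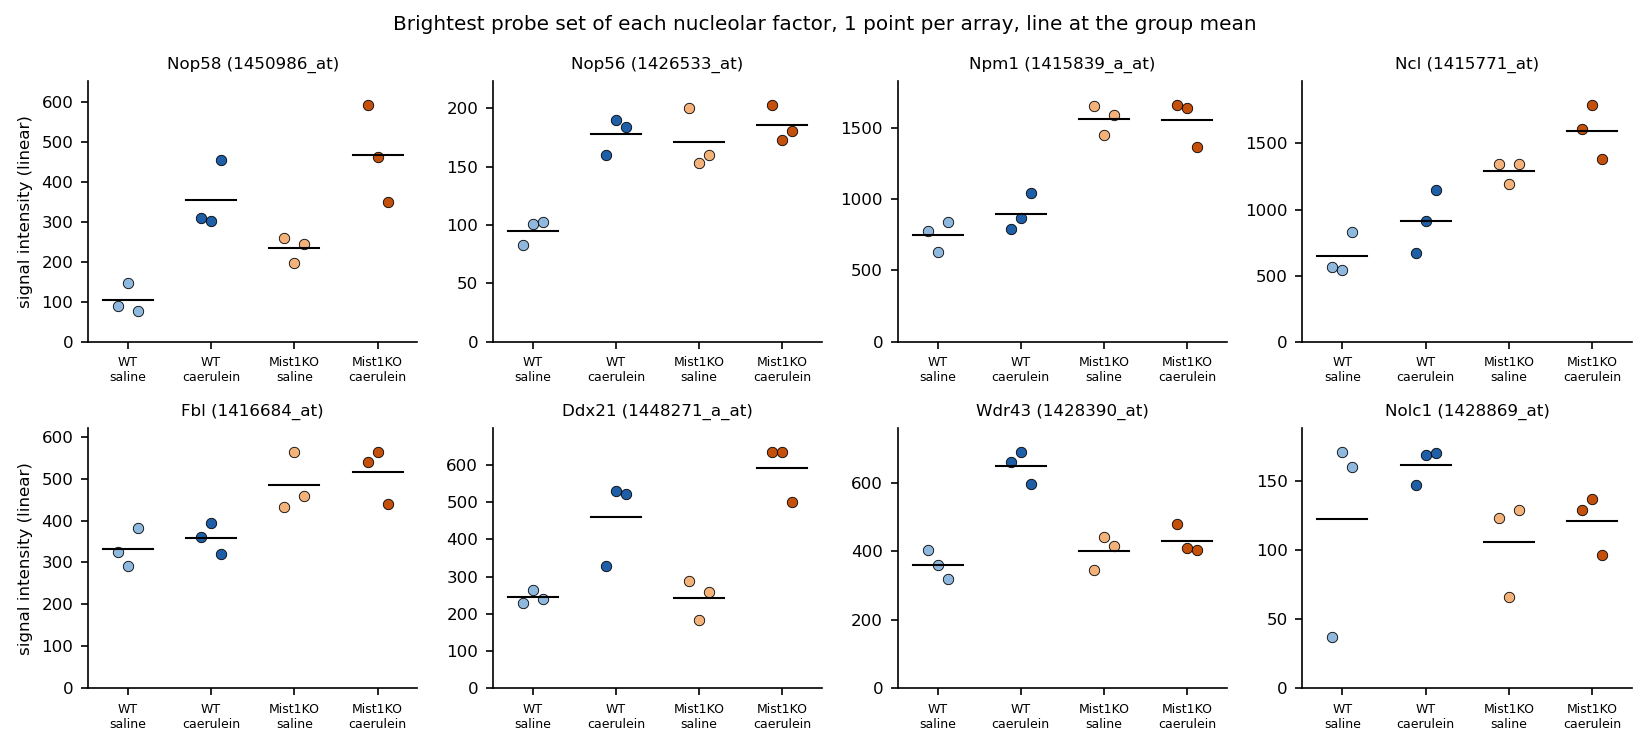
Deposited signal (linear axis from 0) of the brightest probe set of each of the 8 factors, 1 point per array and a bar at the mean of each group of 3. Nop58 and Nop56 are lowest in wild type saline, Npm1, Ncl and Fbl are higher on all Mist1KO than on all wild type arrays, Ddx21 is higher after caerulein in both genotypes, and Wdr43 is highest in wild type caerulein.

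Nop58, a core protein of the box C/D particle, had the largest response to caerulein of the 8 factors in wild type. Its probe set (1450986_at) read 90.8, 146.1 and 76.6 on the wild type saline arrays and 309.7, 302.6 and 455.6 on the wild type caerulein arrays, against 260.6, 196.3 and 243.6 in Mist1KO with saline and 592.1, 462.5 and 349.6 with caerulein. The wild type saline arrays were below every other array, and the caerulein groups of both genotypes overlapped. Caerulein raised Nop58 3.08-fold in wild type (1.62 ± 0.23, adjusted p = 0.000273) and 1.9-fold in Mist1KO (0.93 ± 0.23, adjusted p = 0.0103). The call in Mist1KO ended without Mist1KO caerulein replicate 1, the brightest of its group (0.75, adjusted p = 0.0586). After saline Nop58 was 2.09-fold higher in Mist1KO (1.07 ± 0.23, adjusted p = 0.0105). After caerulein the genotypes differed by 0.37 ± 0.23 (95% interval -0.13 to 0.87, adjusted p = 0.297).

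Nop56, the partner of Nop58 in the particle, also started lowest in wild type saline, and its 3 other groups overlapped. Its brightest probe set (1426533_at) read 82.8, 100.6 and 102.1 on the wild type saline arrays and 160.0, 189.4 and 184.2 on the wild type caerulein arrays, against 200.5, 152.9 and 160.0 in Mist1KO with saline and 202.5, 172.6 and 180.2 with caerulein. The latter 3 groups overlapped one another and all their arrays were above those of wild type saline. Nop56 rose 1.73-fold with caerulein in wild type (0.79 ± 0.16, adjusted p = 0.00282) and was 1.66-fold higher in Mist1KO after saline (0.73 ± 0.16, adjusted p = 0.00857). Caerulein in Mist1KO gave 0.11 ± 0.16 (interval -0.23 to 0.44), and the genotypes differed by 0.05 ± 0.16 after caerulein (interval -0.28 to 0.39).

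Another Nop56 probe set (1455035_s_at) read 17.5, 42.7 and 75.8 in wild type saline and between 69.2 and 178.9 on the other arrays. It gave 0.79 ± 0.33 with caerulein in wild type, short of the threshold (adjusted p = 0.121; 1.12 and adjusted p = 0.0342 without wild type saline replicate 3). After saline it was 2.11-fold higher in Mist1KO (1.08 ± 0.33, adjusted p = 0.0498). That call was lost in 15 of 21 alternative settings, among them those without wild type saline replicate 1 or 2, without any 1 of the Mist1KO saline or wild type caerulein arrays, and without Mist1KO caerulein replicate 2 (0.72 to 1.41 over all settings, highest adjusted p = 0.163).

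Fbl, which encodes the methyltransferase of the box C/D particle, was higher in Mist1KO with either injection by its brightest probe set, and its other probe set was called after saline only. The brightest (1416684_at) read 324.4, 292.5 and 381.7 in wild type saline and 359.9, 395.0 and 320.5 in wild type caerulein. It read 432.1, 563.5 and 457.7 in Mist1KO saline and 540.0, 564.1 and 440.5 in Mist1KO caerulein. Every Mist1KO array was above every wild type array, and the injections overlapped within each genotype. Fbl was 1.43-fold higher in Mist1KO after saline (0.52 ± 0.15, adjusted p = 0.0368) and 1.41-fold higher after caerulein (0.50 ± 0.15, adjusted p = 0.0292). Caerulein gave 0.10 ± 0.15 in wild type and 0.09 ± 0.15 in Mist1KO, with intervals from -0.21 to 0.42 and from -0.23 to 0.40.

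The Fbl calls were near the threshold. With this probe set the saline call was lost in 9 of 21 settings, among them those without wild type saline replicate 1 or 2, without any 1 of the Mist1KO saline arrays, and without Mist1KO caerulein replicate 1 (0.41 to 0.61, highest adjusted p = 0.128). The caerulein call was lost in 6 of 21, among them those without wild type caerulein replicate 1 or 3 and without Mist1KO caerulein replicate 1 or 2 (0.42 to 0.60, highest adjusted p = 0.112). The other probe set (1416685_s_at) gave 0.77 ± 0.17 after saline (adjusted p = 0.0117; 0.0533 without Mist1KO saline replicate 3) and 0.44 ± 0.17 after caerulein (adjusted p = 0.0901; 0.63 and 0.0218 without Mist1KO caerulein replicate 1). With that probe set the genotypes overlapped after caerulein. Its wild type arrays did not overlap between injections, at means of 260 after caerulein and 198 after saline, and the difference of 0.36 ± 0.17 was not called (adjusted p = 0.175).

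Npm1, whose product nucleophosmin acts as a chaperone for histones and ribosomal proteins, was higher in Mist1KO than in wild type with either injection. Its brightest probe set (1415839_a_at) read 778.8, 630.0 and 841.6 on the wild type saline arrays and 787.2, 864.8 and 1039.7 on the wild type caerulein arrays, against 1650.4, 1451.5 and 1588.4 in Mist1KO with saline and 1657.1, 1635.8 and 1365.7 with caerulein. The genotypes did not overlap, and within each genotype the injections did. Npm1 was 2.07-fold higher in Mist1KO after saline (1.05 ± 0.14, adjusted p = 0.000382) and 1.72-fold higher after caerulein (0.78 ± 0.14, adjusted p = 0.00136). Caerulein gave 0.25 ± 0.14 in wild type (interval -0.04 to 0.55) and -0.01 ± 0.14 in Mist1KO (interval -0.31 to 0.28), the latter 0.11 with the arrays centred on their medians. The other probe set (1432416_a_at) gave 1.11 ± 0.21 and 1.09 ± 0.21 between genotypes after saline and caerulein (adjusted p = 0.00453 and 0.00259).

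Ncl, whose product nucleolin binds the ribosomal RNA precursor and ribosomal DNA chromatin, followed the same order of genotypes. Its brightest probe set (1415771_at) read 563.9, 545.2 and 834.2 on the wild type saline arrays and 672.2, 913.8 and 1146.1 on the wild type caerulein arrays, against 1341.5, 1190.2 and 1347.6 in Mist1KO with saline and 1609.5, 1789.9 and 1384.3 with caerulein. All Mist1KO arrays were above all wild type arrays, and in Mist1KO all caerulein arrays were above all saline arrays. Ncl was 2-fold higher in Mist1KO after saline (1.0 ± 0.19, adjusted p = 0.00471) and 1.77-fold higher after caerulein (0.82 ± 0.19, adjusted p = 0.00807). The caerulein differences were 0.47 ± 0.19 for wild type, with adjusted p = 0.103, and 0.29 ± 0.19 for Mist1KO, with adjusted p = 0.305, neither past the threshold. That in wild type passed without wild type caerulein replicate 1 (0.67, adjusted p = 0.0232) or wild type saline replicate 3 (0.66, adjusted p = 0.0295).

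The probe sets of Ncl did not all read alike. Another (1415773_at) gave 1.25 ± 0.18 after saline and 1.0 ± 0.18 after caerulein in Mist1KO against wild type (adjusted p = 0.00066 and 0.0015). With caerulein in wild type its groups did not overlap, at 197.6, 189.1 and 266.2 against 319.8, 292.8 and 305.0, but the difference of 0.47 ± 0.18 missed the threshold (adjusted p = 0.0831; 0.0474 and 0.0467 with median centring and quantile normalization). A further one (1456528_x_at) gave 0.02 ± 0.24 and -0.64 ± 0.24 between genotypes (adjusted p = 0.972 and 0.0773; after caerulein -0.89 and 0.0217 without wild type caerulein replicate 2). The suffix x marks probe sets whose probes can match other sequences, so this reading of Ncl is uncertain. The dim probe set of Ncl (1415772_at) read between 17.4 and 42.1 on all arrays and was not tested.

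Ddx21, an RNA helicase of the nucleolus that takes part in polymerase I transcription and precursor processing, responded to caerulein in both genotypes. Its brightest probe set (1448271_a_at) read 230.4, 264.8 and 240.6 in wild type saline and 328.3, 531.1 and 523.3 in wild type caerulein. It read 288.5, 182.5 and 260.0 in Mist1KO saline and 636.0, 635.8 and 501.7 in Mist1KO caerulein. Every caerulein array was above every saline array, and the genotypes overlapped within each injection. Caerulein raised Ddx21 1.78-fold in wild type (0.83 ± 0.20, adjusted p = 0.00903) and 2.35-fold in Mist1KO (1.23 ± 0.20, adjusted p = 0.000402).

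The genotypes differed in Ddx21 by -0.03 ± 0.20 after saline (interval -0.45 to 0.39; 0.06 with median centring) and by 0.37 ± 0.20 after caerulein (interval -0.05 to 0.79). For the other probe set (1448270_at) the caerulein differences were 0.43 ± 0.21 in wild type and 0.35 ± 0.21 in Mist1KO, neither called (adjusted p = 0.176 and 0.266; in wild type 0.64 and 0.0476 without wild type caerulein replicate 1). The probe sets of Ddx21 thus disagreed in the size of the change and in the call.

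Wdr43, a subunit of the complex that makes the first cuts towards the small ribosomal subunit, stood highest in wild type caerulein alone. Its brightest probe set (1428390_at) read 404.4, 360.3 and 320.1 on the wild type saline arrays and 661.2, 691.3 and 595.8 on the wild type caerulein arrays, against 344.3, 441.7 and 415.6 in Mist1KO with saline and 480.0, 408.7 and 404.7 with caerulein. The wild type caerulein arrays were above all others, and the remaining 3 groups overlapped, apart from wild type saline and Mist1KO caerulein, which were 404.4 and 404.7 at their nearest. Wdr43 rose 1.76-fold with caerulein in wild type (0.82 ± 0.13, adjusted p = 0.000726), while the difference in Mist1KO was 0.10 ± 0.13 (interval -0.18 to 0.39). After caerulein it was 1.49-fold lower in Mist1KO than in wild type (-0.57 ± 0.13, adjusted p = 0.00807), and after saline the genotypes differed by 0.14 ± 0.13 (interval -0.15 to 0.43). The other probe set (1428389_s_at) gave 0.52 ± 0.23 with caerulein in wild type and -0.31 ± 0.23 between genotypes after caerulein, neither called (adjusted p = 0.136 and 0.38).

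Nolc1, the scaffold that binds snoRNA particles and polymerase I, was not called in any comparison, and its probe sets differed from one another. The brightest (1428869_at) read 36.8, 171.1 and 159.7 in wild type saline, so wild type saline replicate 1 was far below the others, and between 65.8 and 169.9 on the remaining arrays. Its caerulein difference in wild type was 0.54 ± 0.38, and -0.03 without that array. The next (1450087_a_at) read 124.1, 138.2 and 107.6 in wild type saline against 27.1, 88.1 and 78.5 in Mist1KO saline, without overlap. The difference of -0.86 ± 0.27 lay at the threshold (adjusted p = 0.0502; 0.0306 without Mist1KO saline replicate 2).

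The dim probe set of Nolc1 (1428870_at) was left out of the tests above, with signals of 7.6, 7.2 and 12.2 in wild type saline and 48.5, 28.0 and 34.6 in Mist1KO saline. It read from 3.2 to 4.8 on both sets of caerulein arrays. All of its signals outside Mist1KO saline lay under the offset of 18.7 that is added before the log, so no fold is given for it. No direction is given for the gene.

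**Figure D2:**
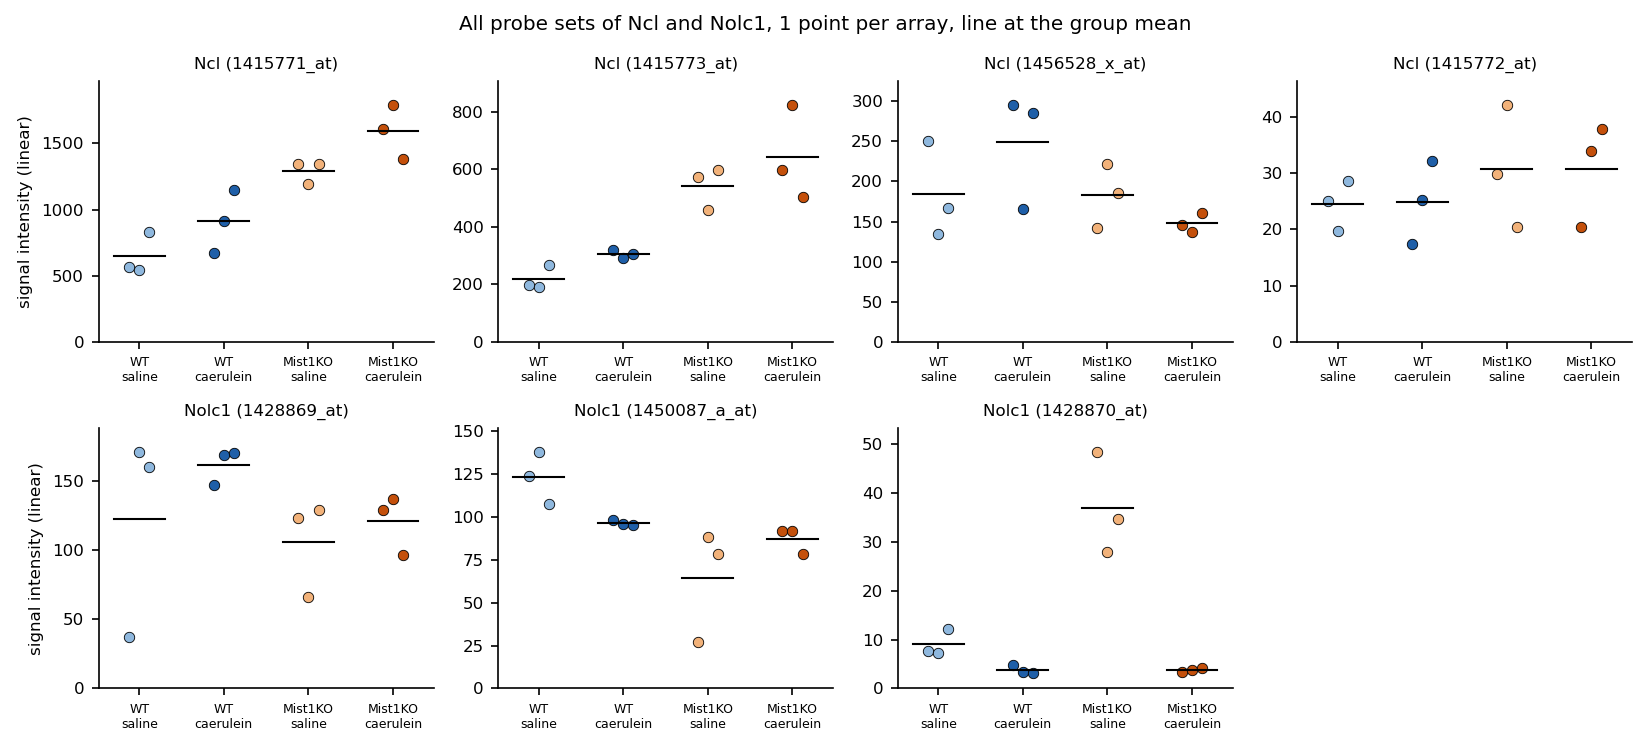
Signal intensity (linear axes from 0) of every probe set of Ncl (upper row) and Nolc1 (lower row), 1 point per array and a line at the mean of each group of 3. 1415771_at and 1415773_at of Ncl are higher on all Mist1KO than on all wild type arrays and 1456528_x_at is not, while the probe sets of Nolc1 differ from one another in which group is highest.

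**Figure D3:**
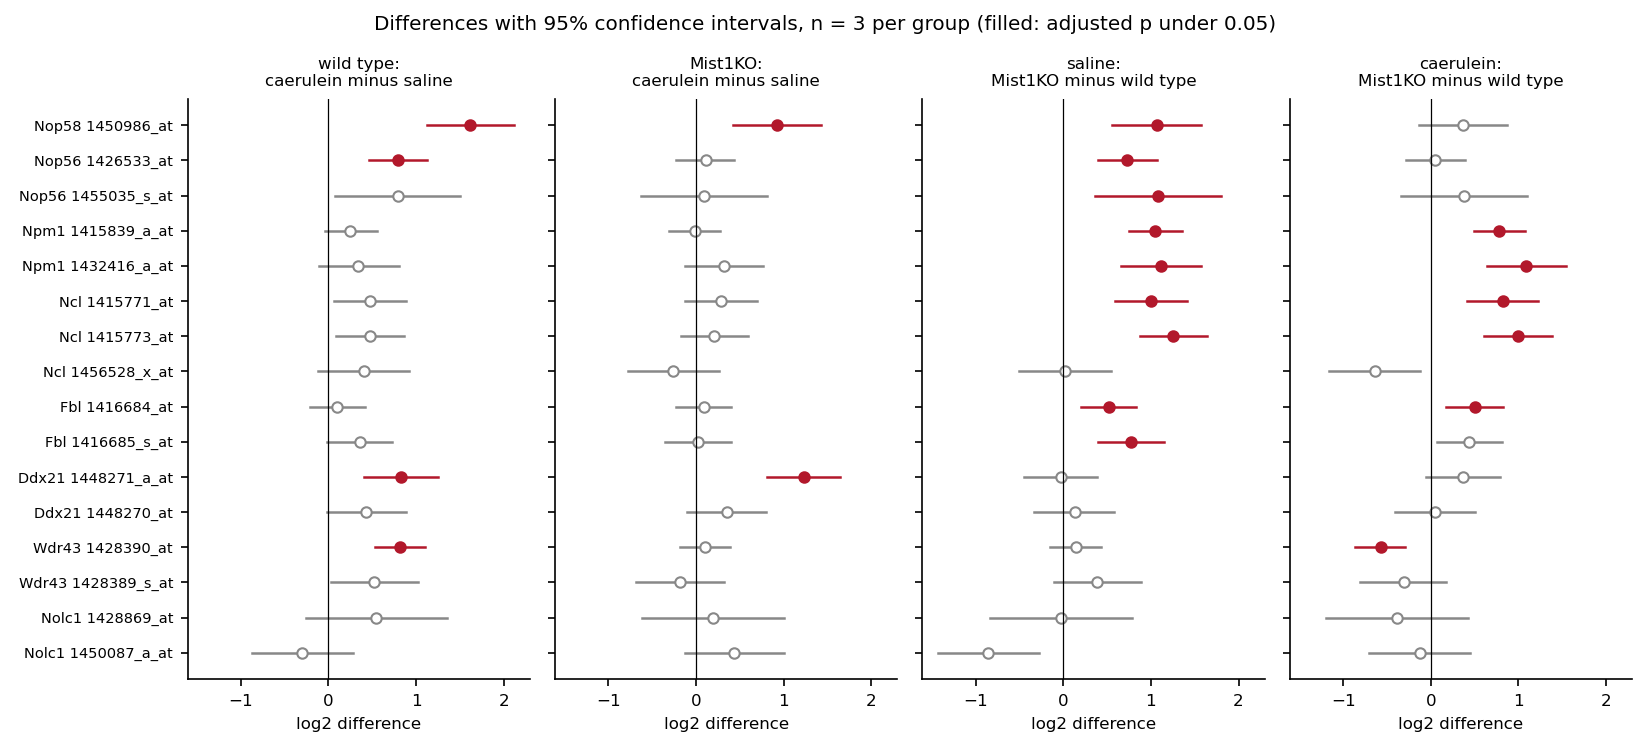
Log2 differences of the 16 tested probe sets, with bars for 95% confidence intervals and filled red points for adjusted p under 0.05, in the 4 comparisons of groups (n = 3 per group). 1448271_a_at of Ddx21 is filled in both caerulein comparisons, and both probe sets of Npm1 and 2 of the 3 of Ncl are filled in both genotype comparisons.

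The comparison of the caerulein responses of both genotypes asks whether the response differed between them. No member was called in this interaction, in which 3.30% of all probe sets were called, and the lowest adjusted p among the 16 was 0.0588, for Wdr43. At an unadjusted p under 0.05 there were 2 of 16, Wdr43 (1428390_at) and Nop56 (1426533_at). The response in Mist1KO minus that in wild type was -0.71 ± 0.19 for Wdr43, which passed with the filter on dim probe sets set at the 50th percentile (adjusted p = 0.048). It was -0.68 ± 0.22 for Nop56 (adjusted p = 0.119) and -0.69 ± 0.33 for Nop58 (adjusted p = 0.312). Ddx21 had the opposite sign, 0.40 ± 0.28 (adjusted p = 0.524). The sign was negative in 14 of 16 probe sets, with a median of -0.30 against 0.00 over all.

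**Figure D4:**
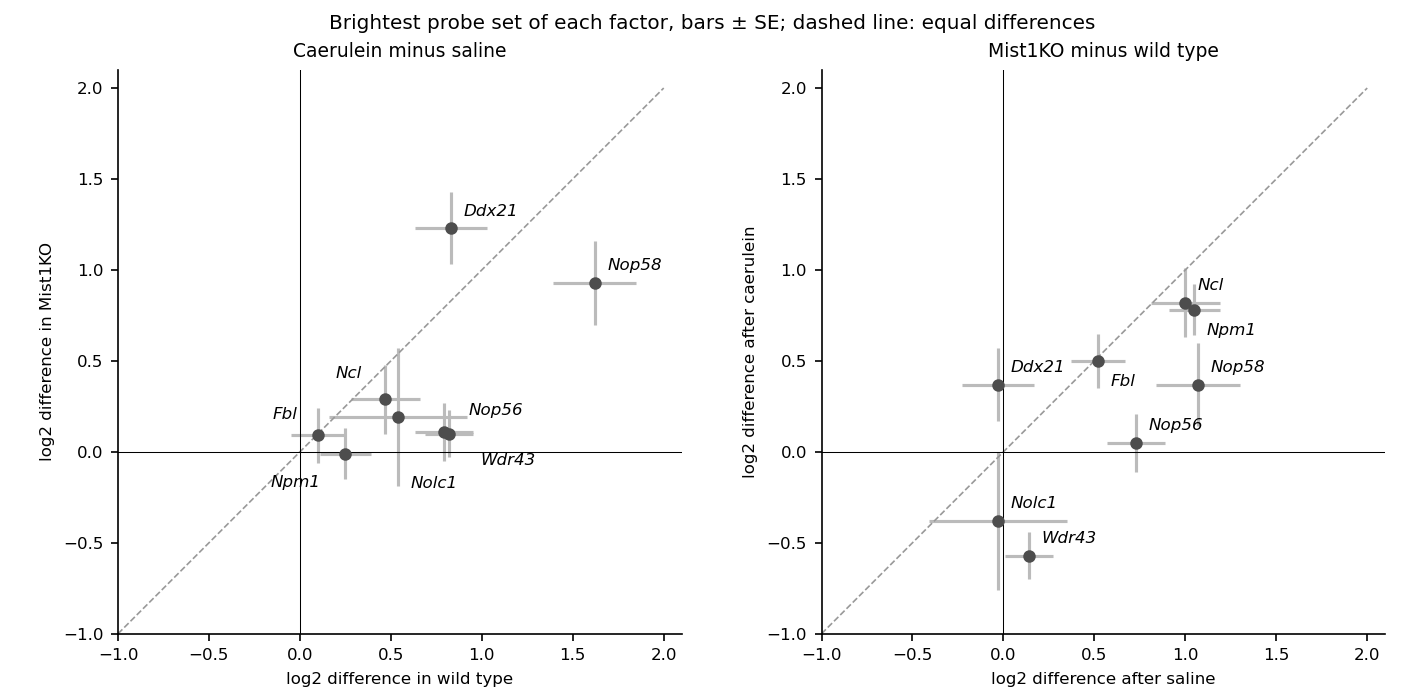
Left, caerulein differences in wild type (x) against those in Mist1KO (y); right, genotype differences after saline (x) against those after caerulein (y); log2 differences of the brightest probe sets with bars of ± SE, and a dashed line at equal values. Nop58, Nop56 and Wdr43 lie below the line in both panels and Ddx21 above it. On the right Npm1, Ncl and Fbl are nearer to it than these.

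Beyond the 8 factors, 106 other genes of ribosome biogenesis were tested, in lists by step of the pathway. In wild type caerulein raised 20 and lowered 3 of them (8.74% and 9.96% of all genes), with a median difference of 0.19 against -0.14 over all. In Mist1KO it raised 13 and lowered 8 (10.2% and 14.0% of all), with medians of 0.11 and -0.13. In Mist1KO against wild type, 12 were higher and 3 lower after saline (6.14% and 6.95% of all), and 6 were higher and 9 lower after caerulein (9.03% and 11.6%). The count of 20 stayed within 1.5 times of itself in every setting run. The other counts moved by more than that in some settings. In Mist1KO with caerulein the 13 became 7 without Mist1KO caerulein replicate 1 or 2, 6 without Mist1KO saline replicate 2 and 8 without Mist1KO saline replicate 3, and the 8 became 2 to 4 without any 1 of the Mist1KO saline arrays or Mist1KO caerulein replicate 1 or 2. Between genotypes after saline the 12 became 3 to 6 without any 1 of the Mist1KO saline arrays or wild type saline replicate 1 or 2, and the 3 became 1 without Mist1KO saline replicate 3 or wild type saline replicate 3. After caerulein the 6 became 3 and the 9 became 5 without Mist1KO caerulein replicate 1.

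Of 39 large subunit assembly factors, 10 were higher and 0 lower with caerulein in wild type by limma (14 higher and 1 lower at an unadjusted p under 0.05), where 8.74% of all genes were higher. Among them were Rrp15 (43 to 199 in mean signal, 1.92 ± 0.29, adjusted p = 0.000342), the RNA methyltransferase gene Nop2 (85.9 to 226, 1.39 ± 0.40, adjusted p = 0.0253) and the GTPase gene Gtpbp4 (121 to 269, 1.04 ± 0.19, adjusted p = 0.00151). In Mist1KO with caerulein 5 of 39 rose and 1 fell (10.2% and 14.0% of all genes), with Eif6, which keeps the subunits apart, at 0.83 ± 0.13 (adjusted p = 0.000291). After saline 6 of 39 were higher in Mist1KO and 0 lower (13 and 1 at an unadjusted p under 0.05), where 6.14% and 6.95% of all genes were. Ftsj3 was among the 6 (1.37 ± 0.38, adjusted p = 0.0325). After caerulein 2 were higher and 1 lower in Mist1KO (9.03% and 11.6% of all genes). The Nop2 call ended without wild type saline replicate 1 or 2 or any 1 of the wild type caerulein arrays (1.02 to 1.42, adjusted p up to 0.103), and that of Ftsj3 without Mist1KO saline replicate 1 or 2 or wild type saline replicate 1 or 2 (1.04 to 1.35, adjusted p up to 0.12).

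Among small subunit factors, the group of Wdr43, 7 of 34 others rose and 1 fell with caerulein in wild type (8.74% and 9.96% of all genes). Tsr1 rose by 1.62 ± 0.35 (adjusted p = 0.00564), Esf1 by 1.48 ± 0.17 (adjusted p = 5.27e-05) and Wdr75, like Wdr43 a subunit of the small subunit processome, by 1.42 ± 0.20 (adjusted p = 0.000196). In Mist1KO 5 rose and 2 fell (10.2% and 14.0% of all genes), with Utp20 at 1.09 ± 0.26 (adjusted p = 0.00682) and Pno1 at 1.03 ± 0.17 (adjusted p = 0.000426). After saline 2 were higher in Mist1KO and 2 lower (6.14% and 6.95% of all genes). After caerulein 1 of the 34 was higher in Mist1KO and 6 were lower (9.03% and 11.6% of all genes). Esf1 (-1.07 ± 0.17), Wdr75 (-0.91 ± 0.20) and Mphosph10 (-0.79 ± 0.14) were among the 6, in the direction of Wdr43. In the interaction, Esf1 (-1.25 ± 0.25, adjusted p = 0.0151) and Wdr75 (-1.20 ± 0.28, adjusted p = 0.0324) were called lower and the other 32 were not called. Of all probe sets 3.30% were called there, in either direction. The Wdr75 call ended without any 1 of the Mist1KO caerulein arrays, Mist1KO saline replicate 1 or 3, wild type caerulein replicate 2 or 3 or wild type saline replicate 2 (adjusted p up to 0.0892).

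Of the other genes of the snoRNA particles, those of the box C/D class had few calls. Of the 5 further box C/D genes limma called 0 in wild type with caerulein and 0 in each genotype comparison (at an unadjusted p under 0.05 the counts were 1 in wild type with caerulein, 1 between genotypes after saline and 0 after caerulein). In Mist1KO with caerulein Rrp9, which binds the U3 snoRNA, rose (0.98 ± 0.32, adjusted p = 0.0386), a call that ended without any 1 of the Mist1KO caerulein arrays or Mist1KO saline replicate 2 or 3 (lowest difference 0.89, adjusted p up to 0.132). Of the 4 box H/ACA genes, whose particles guide pseudouridylation, Naf1 rose with caerulein by 1.59 ± 0.23 in wild type (adjusted p = 0.000243) and by 0.83 ± 0.23 in Mist1KO (adjusted p = 0.0159), where Nop10 fell (-0.74 ± 0.23, adjusted p = 0.0335). Nhp2 was higher in Mist1KO after saline (0.78 ± 0.13, adjusted p = 0.00231) and after caerulein (0.77 ± 0.13, adjusted p = 0.00116), as was Naf1 after saline (0.78 ± 0.23, adjusted p = 0.0384). With caerulein the box H/ACA calls were 1 of 4 higher in wild type (8.74% of all genes), and 1 higher and 1 lower in Mist1KO (10.2% and 14.0%). In Mist1KO against wild type 2 of 4 were higher after saline (6.14% of all genes) and 1 of 4 after caerulein (9.03%). Rrp9 was 1 of 5 box C/D genes, where 10.2% of all genes were higher. In Mist1KO with caerulein the Naf1 call ended without Mist1KO caerulein replicate 1 or 2 or Mist1KO saline replicate 2 (0.67 to 0.76, adjusted p up to 0.0856). That of Nop10 ended without Mist1KO caerulein replicate 1 or 2 or any 1 of the Mist1KO saline arrays (-0.77 to -0.59, adjusted p up to 0.144) and with median centring. The Naf1 call after saline ended without any 1 of the Mist1KO saline arrays or wild type saline replicate 1 or 3 (0.63 to 0.85, adjusted p up to 0.122).

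Of 12 genes of RNA polymerase I and its factors, Tcof1 and Polr1d rose with caerulein in wild type, both by 0.64, and Polr1d in Mist1KO (0.72 ± 0.13, adjusted p = 0.00107). These were 2 of 12 in wild type and 1 of 12 in Mist1KO, where 8.74% and 10.2% of all genes were higher. The median difference of the 12 was -0.06 in both genotypes, against -0.14 and -0.13 over all probe sets. After caerulein both were lower in Mist1KO, Tcof1 by -1.07 ± 0.17 and Polr1d by -0.47 ± 0.13, and after saline Polr1d was (-0.55 ± 0.13). Of all genes 11.6% were lower in Mist1KO after caerulein and 6.95% after saline. The Tcof1 call in wild type ended without wild type caerulein replicate 2 or wild type saline replicate 1 (0.57 and 0.48, adjusted p up to 0.0763). Those of Polr1d between genotypes ended after saline without Mist1KO saline replicate 3 or wild type saline replicate 3 (-0.52 and -0.45, adjusted p up to 0.0577), and after caerulein without Mist1KO caerulein replicate 1 or 2 or wild type caerulein replicate 3 (-0.47 to -0.39, adjusted p up to 0.0904) and with median centring. Of the 12 exosome genes, which trim and degrade RNA, 2 fell with caerulein in wild type (C1d and Exosc7), where 9.96% of all genes did. In Mist1KO 4 fell, where 14.0% of all genes did, among them Exosc5 (-0.91 ± 0.25), Mtrex (-0.90 ± 0.30) and Exosc7 (-0.75 ± 0.16). In the fits without single arrays, the fall of Mtrex in Mist1KO lost its call in 8 and that of Exosc5 in 4. That of Exosc7 in Mist1KO kept its call in each. The number of exosome genes higher with caerulein by limma was 0 in both genotypes, and at an unadjusted p under 0.05 it was 0 in wild type and 1 in Mist1KO. Exosc1 and Mtrex were higher in Mist1KO after saline, by 1.61 ± 0.28 and 1.19 ± 0.30 (adjusted p = 0.00257 and 0.0215). The Mtrex call between genotypes after saline ended without Mist1KO saline replicate 1 or 3 or wild type saline replicate 2 or 3 (1.11 to 1.22, adjusted p up to 0.0831). That of Exosc7 in wild type (-0.54 ± 0.16, adjusted p = 0.0278) ended without wild type caerulein replicate 1 or 3 or wild type saline replicate 2 or 3 (-0.52 to -0.42, adjusted p up to 0.103) and with median centring.

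**Figure D5:**
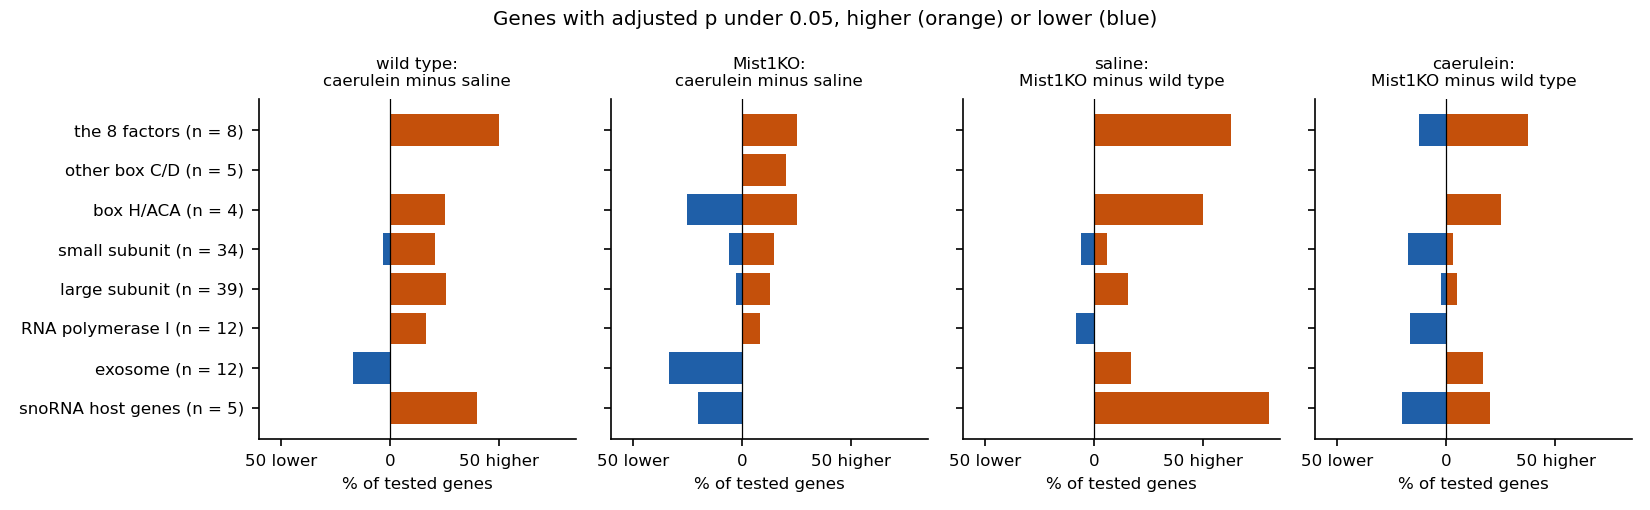
Share of the tested genes of each list with adjusted p under 0.05, with the higher ones to the right and the lower ones to the left of 0, in the 4 comparisons of groups; n is the number of genes tested. In wild type with caerulein the bars of the small and large subunit factors lie nearly all on the higher side, and with caerulein those of the exosome genes lie on the lower side.

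Myc, which encodes a transcription factor known to activate genes of ribosome biogenesis, was measured beside the members as 1 of 13 tested genes of the Myc network and growth. With caerulein 3 of the 13 were higher and 1 lower in wild type (8.74% and 9.96% of all genes). In Mist1KO 2 were higher and 3 lower (10.2% and 14.0%). In Mist1KO against wild type 1 was higher and 1 lower after saline (6.14% and 6.95%). After caerulein limma called 0 higher and 5 lower (9.03% and 11.6%). Mxi1 fell with caerulein in both genotypes and Eif4ebp1, by a probe set with the suffix x, rose in both. Myc signals were 225.1, 191.6 and 129.2 on the wild type saline arrays and 339.2, 540.9 and 454.7 on the wild type caerulein arrays, against 375.8, 271.1 and 274.0 in Mist1KO with saline and 198.3, 197.0 and 246.7 with caerulein. Wild type caerulein overlapped Mist1KO saline only, and within Mist1KO the caerulein arrays were below the saline arrays. Myc rose with caerulein in wild type (1.21 ± 0.21, adjusted p = 0.0011), gave -0.48 ± 0.21 in Mist1KO (adjusted p = 0.124), and was lower in Mist1KO than in wild type after caerulein (-0.98 ± 0.21, adjusted p = 0.00495). The interaction was -1.69 ± 0.30 (adjusted p = 0.00774). After saline it was higher in Mist1KO (0.71 ± 0.21, adjusted p = 0.0411), a call that was lost in 12 settings, among them those without any 1 of the Mist1KO saline arrays, wild type caerulein replicate 3, wild type saline replicate 2 or 3, or Mist1KO caerulein replicate 1 or 2 (adjusted p up to 0.156). Ddx21 and Nop58 were called higher in Mist1KO with caerulein, where the negative difference of Myc was not called. A relation between Myc and the members was not tested. Of 13 cell cycle genes limma called 0 with caerulein in wild type (0 higher and 5 lower at an unadjusted p under 0.05). In Mist1KO 3 were called lower (14.0% of all genes), Mki67 (-0.83 ± 0.28, adjusted p = 0.0453), Rrm2 (-0.73 ± 0.25, adjusted p = 0.0478) and Ccnd1 (-0.44 ± 0.13, adjusted p = 0.0278). All 3 calls ended with median centring, and without Mist1KO caerulein replicate 2 or Mist1KO saline replicate 2 or 3. Others of the 12 arrays left out singly ended them too, so that 7, 7 and 5 of the 12 fits lost the calls of Mki67, Rrm2 and Ccnd1 (adjusted p up to 0.162, 0.199 and 0.0928). Between genotypes after saline limma called 0 of the 13 higher (1 at an unadjusted p under 0.05) and 2 lower, Mcm2 and Rrm2 (6.95% of all genes). Single arrays left out ended the Mcm2 call in 6 fits and the Rrm2 call in 2. After caerulein Pcna was higher in Mist1KO (0.85 ± 0.16, adjusted p = 0.002) and Rrm2 lower (-1.65 ± 0.25, adjusted p = 0.000438), where 9.03% and 11.6% of all genes were. The Rrm2 probe set has the suffix x.

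The mean profile of the 8 members, each centred on its own mean over the 12 arrays, was compared with those of 9473 other genes by the root mean square distance in log2 units. The nearest were Huwe1, a ubiquitin ligase gene (0.132), Brix1, a large subunit assembly factor (0.140), Mybbp1a, a nucleolar protein gene (0.141), Ppig (0.148), Smyd2 (0.150) and Chmp4b (0.157), against a median of 0.575 over all genes compared. Brix1 averaged -0.53 after saline and 0.11 after caerulein in wild type, and -0.01 and 0.43 in Mist1KO, on the centred scale. Of the members, Nop56 was nearest to their mean (0.134) and Nolc1 (0.485) and Nop58 (0.471) the farthest, so the mean profile describes some members poorly.

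The deposited scaling set how rises and falls were shared over the array. Among all called probe sets the share called higher was 48.5% in wild type with caerulein, 43.9% in Mist1KO with caerulein, and 54.4% and 49.7% between genotypes after saline and caerulein. With the arrays centred on their medians these became 67.8%, 59.7%, 71.5% and 61.7%, and the median difference in wild type with caerulein moved from -0.14 to -0.01. All 21 called member differences kept their sign and call under that centring, and under quantile normalization all did but that of Fbl (1416684_at) between genotypes after caerulein. The acinar marker sum was lowest in Mist1KO caerulein, where 9 of 11 acinar genes fell with caerulein (14.0% of all genes), a pattern whose part in the members' values was not tested. Between genotypes after saline, the comparison with the most calls among the members, limma called 0 of the 11 acinar genes, and 8 were lower at an unadjusted p under 0.05.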

How the data were processed

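RNA of 12 whole mouse pancreata was measured on 1 Affymetrix mouse array each, and the sample titles gave the genotype and injection of every sample. The values deposited by the authors were signal intensities on a linear scale, with 1 value for each probe set of an array. The 2% trimmed means of the arrays lay between 151.08 and 151.37 and their medians between 70.6 and 90.2, so the arrays share a common scale. Neither the summarising software nor its scaling target or detection calls are named in the labels. Signal over background is therefore unknown, and the number of arrays limits the precision.

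Besides 64 controls among 22516 probe sets, 20240 carried 1 symbol in the platform annotation, 682 several and 1530 none. Signals were taken to log2 after adding 18.7 (their 20th percentile), and folds on that scale understate changes at low signal. Control probe sets and those at or below the 30th percentile of mean log2 signal were left out, which left 15716 for 9481 genes named singly. One mean per group was estimated from the 12 arrays together by limma 3.58.1 under R 4.3.3 (lmFit, and eBayes with an intensity trend; 8 residual and 5.75 prior degrees of freedom). The 4 comparisons and the interaction were tested from both sides, with Benjamini-Hochberg adjustment over all probe sets and a threshold of 0.05. On simulated data of 15716 probe sets, 100 were changed by each size for caerulein in wild type. Of these, 97 changes of 2 log2 units and 50 of 1 unit were recovered, and 7 unchanged probe sets were called. In the data 1444 probe sets were called higher and 1531 lower in this comparison, many more than were changed in the simulation. The adjustment thus acts differently, and the rates need not hold for the data.

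The members and gene lists were chosen with earlier results of these data known. All probe sets of the 8 members were described, a gene was represented by its brightest probe set, and of each other list the 3 called genes with the largest difference were eligible to be named in a comparison. Genes named outside that rule were chosen after their values were seen. Alternatives were other offsets, filters and normalizations, no intensity trend, a fit on the compared groups only, the replicate number as a block, and each array left out in turn. Promoters came from RefSeq. Python 3.11.15 with matplotlib 3.10.9 was used for the figures.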

Additional observations from a re-analysis of the deposited data

Results flagged for a closer look

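The caerulein responses of the genotypes differed by limma's interaction test, adjusted over all probe sets, for 4 genes listed beside the members, each given as the response in Mist1KO minus that in wild type. The values were -1.69 ± 0.30 for Myc (adjusted p = 0.00774), -1.25 ± 0.23 for the snoRNA host gene Snhg1 (adjusted p = 0.00952), -1.25 ± 0.25 for Esf1 (adjusted p = 0.0151) and -1.20 ± 0.28 for Wdr75 (adjusted p = 0.0324). These were 2 of 106 other ribosome biogenesis genes, 1 of 5 snoRNA host genes and 1 of 13 genes of the Myc network and growth. Of 13 cell cycle genes limma called 0 (1 at an unadjusted p under 0.05). Of all probe sets 3.30% were called in this test, in either direction. The Wdr75 call was lost in 8 of the 12 fits without a single array. The dim probe set of Nolc1 (1428870_at) differed by -1.0 ± 0.23 (adjusted p = 0.0451) in the fit without the filter. All signals of that probe set apart from those of Mist1KO saline were at 12.2 or below, under the offset of 18.7, so this value is set by the offset and is no measure of size.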

How the results depend on the processing

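None of the 21 called member differences changed sign in any of 21 alternative settings, and 16 kept their call in all of them; the other 5 are those of Nop58, Nop56 (1455035_s_at) and Fbl described above. Leaving out single arrays gave 4 to 7 member probe sets (4 to 5 genes) called in wild type with caerulein, and 1 to 2 in Mist1KO with caerulein, by probe set and by gene. With the filter at the 50th percentile, 1 member (Wdr43) was called in the interaction. For the other ribosome biogenesis genes, single arrays left out gave 6 to 16 higher and 2 to 9 lower in Mist1KO with caerulein, 3 to 12 higher and 1 to 4 lower between genotypes after saline, 3 to 7 higher and 5 to 11 lower between genotypes after caerulein, and 1 to 3 lower in the interaction. Median centring gave 2 lower in Mist1KO with caerulein and 10 higher between genotypes after caerulein. Without the filter there were 5 lower in Mist1KO with caerulein, 7 higher between genotypes after saline and 1 lower in the interaction, and on the compared groups alone 7 higher between genotypes after saline. The cause was not tested. Small differences that were not called changed sign in places. Npm1 (1415839_a_at) in Mist1KO with caerulein became 0.11 and Ddx21 (1448271_a_at) between genotypes after saline 0.06 with median centring. Nolc1 (1428869_at) between genotypes after saline became 0.06 with median centring, 0.00 with the offset at the 5th percentile and 0.04 with quantile normalization.

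Without single arrays, uncalled differences ranged as follows. Caerulein in wild type gave -0.03 to 0.86 for Nolc1 (1428869_at). Caerulein in Mist1KO gave -0.06 to 0.08 for Npm1 (1415839_a_at), -0.12 to 0.21 for Fbl (1416685_s_at), -0.07 to 0.34 for Nolc1 (1428869_at) and -0.20 to 0.39 for Nop56 (1455035_s_at). Between genotypes after saline the ranges were -0.60 to 0.28 for Nolc1 (1428869_at), -0.05 to 0.26 for Ddx21 (1448270_at), -0.15 to 0.15 for Ddx21 (1448271_a_at) and -0.16 to 0.24 for Ncl (1456528_x_at). After caerulein they were -0.01 to 0.10 for Nop56 (1426533_at) and -0.16 to 0.18 for Ddx21 (1448270_at). In the interaction they were -0.12 to 0.09 for Fbl (1416684_at), -0.66 to 0.22 for Nolc1 (1428869_at), -0.20 to 0.17 for Npm1 (1432416_a_at) and -0.29 to 0.10 for Ddx21 (1448270_at).

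Same-numbered arrays of different groups did not deviate together (correlations from -0.104 to 0.045 in 18 pairs, with 2 of 12 arrays closest to their own number), so the replicate numbers are not treated as pairs. With the replicate number as a block, 4, 2, 7, 6 and 0 member probe sets were called in the 5 tests (4, 2, 9, 6 and 0 without it). Of the other ribosome biogenesis genes, 5 were called lower in wild type with caerulein and 1 in the interaction under the block.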

Other observations

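The noncoding host genes of snoRNAs carry guide RNAs of snoRNA particles in their introns, of the box C/D class, whose particles hold Nop58, Nop56 and Fbl, or of the box H/ACA class, whose particles hold other proteins. Of 5 tested, 4 were higher in Mist1KO than in wild type after saline, where 6.14% of all genes were. Snhg5 averaged 413 against 132 (1.48 ± 0.22, adjusted p = 0.000951), Gas5 1171 against 441 (1.37 ± 0.15, adjusted p = 7.21e-05) and Snhg8 224 against 88.2 (1.19 ± 0.23, adjusted p = 0.0045), and Snhg1 was the other. With caerulein in wild type Snhg1 rose from 308 to 752 (1.24 ± 0.16, adjusted p = 0.000109) and Snhg6 from 337 to 567 (0.75 ± 0.22, adjusted p = 0.03), and 0 of 5 fell by limma (0 at an unadjusted p under 0.05). In Mist1KO caerulein lowered Snhg5 from 413 to 196 (-0.97 ± 0.22, adjusted p = 0.00576). After caerulein Gas5 was still higher in Mist1KO (0.98 ± 0.15, adjusted p = 0.000421), while Snhg1 was lower (-0.50 ± 0.16, adjusted p = 0.0418). That Snhg1 call ended without Mist1KO caerulein replicate 1 or 2, any 1 of the wild type caerulein arrays, Mist1KO saline replicate 3 or wild type saline replicate 1 (-0.57 to -0.34, adjusted p up to 0.182) and with median centring. The Snhg6 call ended without any 1 of the wild type caerulein arrays or wild type saline replicate 1 or 2 (0.56 to 0.78, adjusted p up to 0.115).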
